A study of Arabidopsis thaliana with 6 samples.

Results

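Pseudogenes on the chromosome arms of Arabidopsis thaliana that carried neither monomethylated lysine 27 of histone H3 (H3K27me1) nor methylated cytosine (5mC) above the calling threshold are described here. The members are the 514 annotated pseudogenes with a midpoint on the arms and no base in any H3K27me1 or 5mC domain. They are 41.0% of the 1254 arm pseudogenes and were chosen by the absence of overlap with the deposited domains, so that this count describes the choice. The same absence of both marks held for 70.8% of 25040 protein-coding genes on the arms and for 72.6% of all 31196 arm genes. Of the other arm pseudogenes, 549 touched domains of both lists, 115 touched H3K27me1 domains alone and 76 touched 5mC domains alone.

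The material was young leaves of the accession Col-0 (given in the labels as Col0), which is the source of the reference genome, raised in soil in short days. No mutant, transgene or treatment is named in the labels. Chromatin immunoprecipitation with an H3K27me1 antibody and immunoprecipitation of methylated DNA with a 5mC antibody were each labelled with 2 biological replicates. The 2 input samples are labelled as inputs of the methylated DNA immunoprecipitation, and no input is labelled for H3K27me1. The deposited lists give 1 set of 13068 H3K27me1 domains and 1 set of 12238 5mC domains, with a read count per domain and no value per replicate. The H3K27me1 domains hold 12706852 reads in all and the 5mC domains 28021211. No replicate error and no test between plants could therefore be had, and the tissue could not be checked against markers. Shares are given with exact binomial 95% intervals and medians with 95% order-statistic intervals. Both cover counting error only and treat genes as independent.

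Pseudogenes are sequences that resemble genes and are annotated as having lost their function. They arise from duplicated genes that decay and from remnants of transposable elements. In plants, transposons are commonly silenced by cytosine methylation, and H3K27me1, placed by ATXR5 and ATXR6, marks the same silent chromatin. Decayed copies of ordinary genes need not be treated in this way, and both kinds stand under the word pseudogene in the gene table used here. That table divides the arm pseudogenes into 547 with the biotype "transcribed_pseudogene" and 707 with the biotype "pseudogene". The table does not say what each biotype holds, and few pseudogenes have a symbol. Among those that do, all 12 arm pseudogenes named as cytochrome P450 genes were transcribed_pseudogene, whereas all 7 Sadhu retrotransposons and all 5 MUSTANG genes, which derive from transposases, were of the biotype pseudogene. The division is not clean, since EXT11, named for the cell wall protein extensin, also stands under the biotype pseudogene.

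The split between the biotypes transcribed_pseudogene and pseudogene separated arm pseudogenes with and without marks. The choice of members took both biotypes alike, and the split was added after the data were examined. Of the 547 arm genes with the biotype transcribed_pseudogene, 393 lay outside both lists, a share of 71.8% (interval 67.9 to 75.6%). Of the 707 with the biotype pseudogene, 121 did, a share of 17.1% (14.4 to 20.1%). The share among transcribed_pseudogene genes was thus close to the 70.8% of protein-coding genes (70.2 to 71.4%), while the biotype pseudogene stood far below. These shares take no account of length. At equal length the transcribed_pseudogene share was lower from 250 to under 4000 bp and higher in the other classes, mostly with overlapping intervals (given below). Both marks were met by 10.2% of transcribed_pseudogene genes (7.83 to 13.1%), by 69.7% of those of the biotype pseudogene (66.2 to 73.1%) and by 5.00% of protein-coding genes (4.73 to 5.27%). Seen from the other side, transcribed_pseudogene made up 76.5% of the members (72.5 to 80.1%) and 10.2% of the arm pseudogenes with both marks (7.80 to 13.0%).

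**Figure D1:**
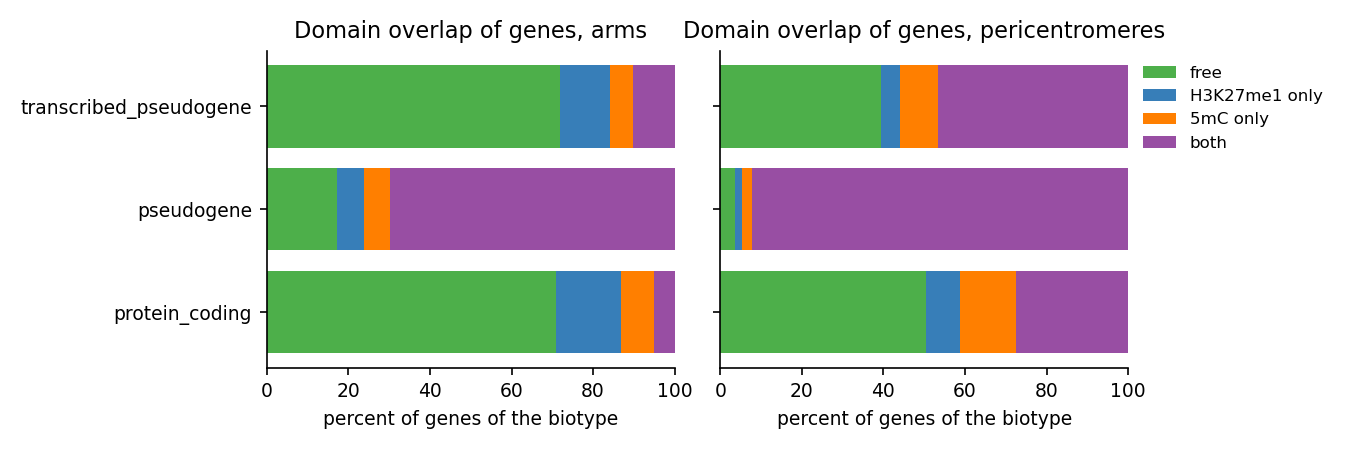
Share of genes (percent, horizontal axis) of each biotype with no base in either domain list (free), in H3K27me1 domains only, in 5mC domains only or in both, on the arms (left) and in pericentromeres (right). On the arms, the free share is 71.8% for transcribed_pseudogene, 17.1% for pseudogene and 70.8% for protein-coding genes.

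The order of the biotypes was the same on every chromosome. Among transcribed_pseudogene genes the unmarked share was lowest on chromosome 5, at 66.7% (52 of 78), and highest on chromosome 4, at 76.8% (53 of 69). For the biotype pseudogene it ran from 11.7% on chromosome 4 (12 of 103) to 25% on chromosome 3 (35 of 140). No value of either biotype came near the range of the other. The intervals of the 5 chromosomes overlapped within each biotype. Over both biotypes together, chromosome 1 held 176 members (45.2% of its 389 arm pseudogenes, 40.2 to 50.3%) and chromosome 2 held 90 (40.7% of 221). Chromosome 3 held 112 (44.4% of 252), chromosome 4 held 65 (37.8% of 172) and chromosome 5 held 71 (32.3% of 220, 26.1 to 38.9%). The intervals of chromosomes 1 and 5, which had the highest and the lowest share, did not overlap. Their mix of biotypes differed too: transcribed_pseudogene made up 186 of the 389 arm pseudogenes on chromosome 1 and 78 of the 220 on chromosome 5. The part of this mix in the difference was not tested.

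**Figure D2:**
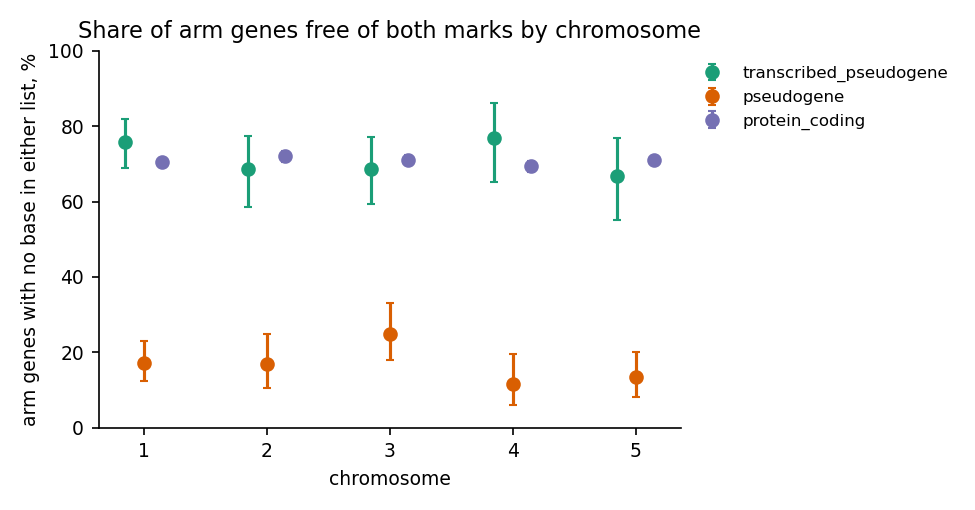
Share of arm genes without a base in either list (percent) on each chromosome, by biotype, with exact binomial 95% intervals. The transcribed_pseudogene points lie between 66.7 and 76.8% on all 5 chromosomes and the pseudogene points between 11.7 and 25%.

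In the pericentromeres all 3 shares were lower. There, 149 of 379 transcribed_pseudogene genes lay outside both lists (39.3%, interval 34.4 to 44.4%), against 117 of 3210 of the biotype pseudogene (3.64%, 3.02 to 4.35%). Protein-coding genes of the pericentromeres had a share of 50.4% (48.4 to 52.4%), above that of transcribed_pseudogene genes, whereas on the arms the intervals of these biotypes overlapped. In all, 266 of 3589 pericentromeric pseudogenes were unmarked, 7.41%.

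Unmarked pseudogenes were short. Their median annotated length was 687 bp (interval 641 to 758 bp, quartiles 401 and 1248 bp), against 2364 bp (2071 to 2556 bp, quartiles 930 and 4075 bp) for arm pseudogenes with both marks. The medians of the members were the lower ones on 5 of 5 chromosomes, from 445 against 1768 bp on chromosome 4 to 854 against 2451 bp on chromosome 3. Together the 514 members covered 0.504 Mb and the 549 with both marks 1.43 Mb. Length is tied to the choice, since a longer gene meets a domain more often, and the smallest call was 300 bp wide for H3K27me1 and 150 bp for 5mC.

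The difference in length was mostly that of the biotype pseudogene. Among its genes the median was 705 bp without marks (541 to 869 bp) and 2500 bp with both (2270 to 2798 bp). Of the 493 with both marks, 292 were at least 2000 bp long, against 13 of the 121 without. Among transcribed_pseudogene genes the medians were 684 bp (622 to 767 bp) and 1170 bp (816 to 1583 bp). Pseudogenes touched by 5mC alone were as short as the members, with a median of 668 bp (469 to 945 bp), whereas those touched by H3K27me1 alone had a median of 1607 bp (1231 to 1767 bp).

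**Figure D3:**
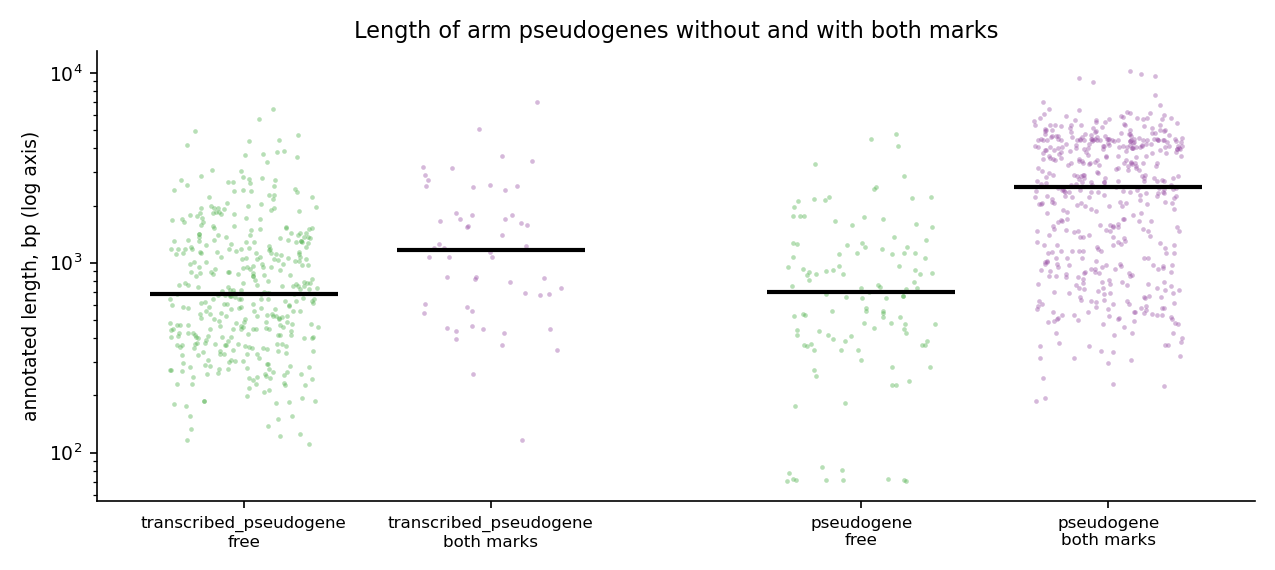
Annotated length (bp, log axis) of each arm pseudogene without marks or with both, by biotype, with 1 point per gene and the median as a black bar. The medians are 684 and 1170 bp for transcribed_pseudogene and 705 and 2500 bp for the biotype pseudogene.

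At equal length the biotypes still stood apart. From 500 to under 1000 bp, 113 of 152 transcribed_pseudogene genes were unmarked (74.3%, 66.6 to 81.1%), 38 of 158 of the biotype pseudogene (24.1%, 17.6 to 31.5%) and 79.9% of 2690 protein-coding genes. From 2000 to under 4000 bp the shares were 56.1% of 57 (42.4 to 69.3%), 5.68% of 176 (2.76 to 10.2%) and 67.8% of 10486. From 4000 bp upward, 7 of 12 transcribed_pseudogene genes were unmarked, an interval of 27.7 to 84.8% that is too wide for a comparison with the 53.4% of protein-coding genes, while 3 of 168 of the biotype pseudogene were (1.79%, 0.370 to 5.13%). In the 4 length classes from 250 to under 4000 bp, the share of transcribed_pseudogene genes was below that of protein-coding genes. The intervals overlapped in 3 of these classes and not from 1000 to under 2000 bp (66.4%, 58.3 to 73.9%, against 76.7%, 75.7 to 77.6%).

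**Figure D4:**
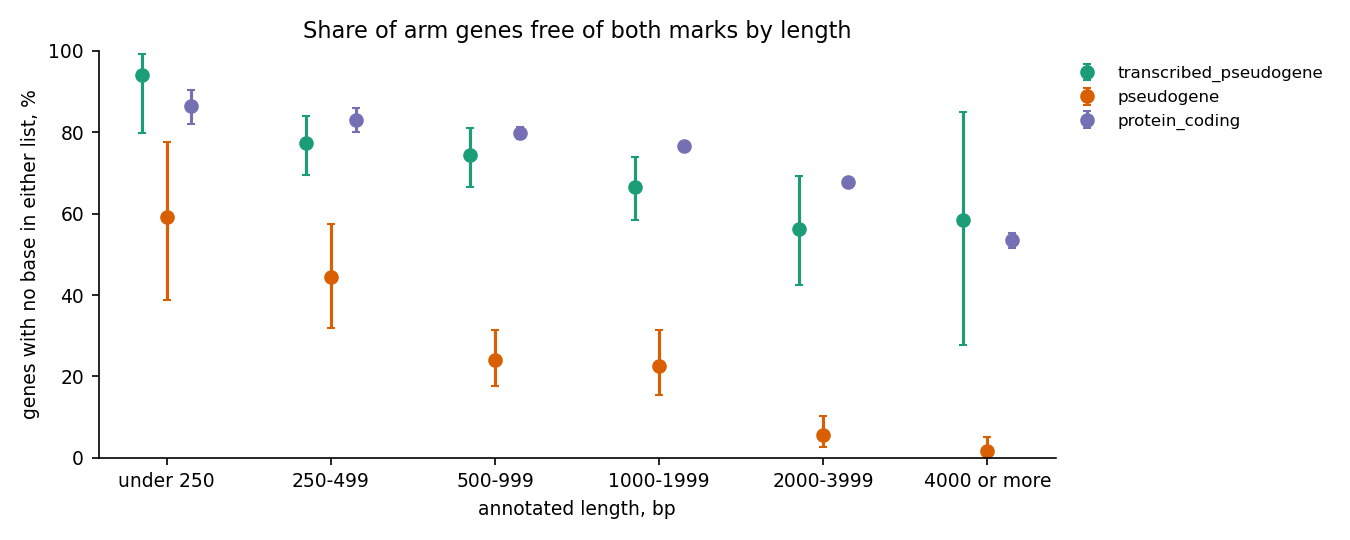
Share of arm genes without a base in either list (percent) in 6 classes of annotated length, by biotype, with exact binomial 95% intervals. The biotype pseudogene falls from 59.3% under 250 bp to 1.79% at 4000 bp or more and lies below both other biotypes in all 6 classes.

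The longest members were the clearest exceptions to short length. AT3G25495, a transcribed_pseudogene of chromosome 3, was 6469 bp long and lay 3422 bp from the nearest domain of either list. AT5G04880 on chromosome 5 had 5730 bp and AT1G79245 on chromosome 1 had 4921 bp, with gaps of 2236 and 1486 bp. AT3G03855 (4677 bp, chromosome 3) lay 15183 bp from any domain. The others of this length with the biotype transcribed_pseudogene were AT1G62090 (4438 bp), AT2G38260 (4365 bp) and AT3G07280 (4170 bp), at 3680, 485 and 278 bp. Each of these 7 genes spanned at least 4000 bp without a base in a domain.

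The biotype pseudogene had 3 unmarked members of at least 4000 bp. AT3G20975 (4756 bp) lay between NFU4, a gene of iron-sulfur cluster assembly, and AT3G20980, which were unmarked as well, and 4476 bp from the nearest domain. AT1G10160 (4500 bp) lay 880 bp from a 5mC domain on chromosome 1 from 3334351 to 3335100 (TAIR10, 1243 reads, 1657 reads per kb). Its neighbour NFXL1, a zinc finger gene of stress responses, touched both lists. AT5G04235 (4125 bp) lay between PAL3, of the phenylalanine ammonia-lyase family, and ELF6, a histone demethylase gene of flowering. It was 586 bp from an H3K27me1 domain on chromosome 5 from 1161901 to 1163700 that held 824 reads.

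The shortest members were 11 genes under 100 bp, from 71 to 84 bp, all of the biotype pseudogene. They were all of the arm pseudogenes below that length. The synonyms of 5 of them name a transfer RNA: AT1G57710 (71 bp), AT2G21760 (72 bp), AT3G20365 (84 bp), AT4G01455 (73 bp) and AT4G22785 (78 bp). No other arm pseudogene carried such a synonym. The nearest domain was 161 bp from AT1G57710, 233 bp from AT2G21760 and 7212 bp from AT4G01455. Genes this short fill less than 1 calling window of either list, so a mark confined to them may not have been called. In all, 76 of the 514 members were shorter than the 300 bp window of the H3K27me1 list.

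At the edge of the choice, members lay a few bases from a domain. The nearest were AT1G54600 and AT3G48058, each 7 bp from an H3K27me1 domain, then AT1G31355 (21 bp from a 5mC domain), AT1G18191 (30 bp) and AT2G31860 (38 bp). Just outside, AT4G00753 had 13 of its 1374 bases in H3K27me1 domains, AT3G61020 had 18 of 2082 in 5mC domains and AT3G46384 had 30 of 851 in H3K27me1 domains. AT2G20600 had 42 and AT5G22044 had 62 bases in 5mC domains. In all, 16 members had a domain within 100 bp, and 8 marked pseudogenes had fewer than 100 bases in domains. Within 300 bp, the width of the H3K27me1 window, 46 members had a domain. With a mark called only from 50% of the length, 651 pseudogenes were unmarked instead of 514.

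Most members were nonetheless not far from marked sequence. The median distance to the nearest domain of either list was 2031 bp (interval 1762 to 2264 bp, quartiles 807 and 4663 bp). It was 3274 bp to the nearest H3K27me1 domain (2855 to 3615 bp) and 4337 bp to the nearest 5mC domain (3682 to 5050 bp). For unmarked protein-coding genes of the arms the median to either list was 2995 bp. The nearest domain was H3K27me1 for 249 members, 5mC for 220, and 45 were equally near to both. A domain lay within 1000 bp of 161 members, and 49 were more than 10 kb from any. The domains nearest to members were ordinary ones: their median width was 600 bp for H3K27me1 and 300 bp for 5mC, as for all arm domains of these lists, and their medians of 413 and 1000 reads per kb stood beside 412 and 1040 reads per kb over all arm domains. Reads per kb are the authors' counts divided by width and are not comparable between the lists.

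The members farthest from any domain all had unmarked neighbours, which follows largely from that distance. AT1G54035 on chromosome 1 (746 bp) had no 5mC domain within 39919 bp and no H3K27me1 domain within 77719 bp. It lay beside ESP, the epithiospecifier protein gene of glucosinolate breakdown, and MVP1. AT1G02136 (269 bp, beside MAGO), AT5G56061 (422 bp) and AT1G28620 (1714 bp) were 27239, 25579 and 24753 bp from the nearest domain. AT5G56830, at 24730 bp, was the only 1 of these 5 with the biotype pseudogene.

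Domain coverage around the members was low at their edges and rose outward. In the first 250 bp outside the edges of the members, 1.03% of bases lay in H3K27me1 domains (0.455 to 1.79% over the 5 chromosomes) and 0.923% in 5mC domains (0.476 to 1.09%). At about 1.1 kb the values were 8.21% (6.51 to 10%) and 5.24% (3.53 to 8.18%), and at about 5.1 kb 7.40% (6.25 to 9.13%) and 6.40% (5.75 to 7.66%). Unmarked protein-coding genes of the arms had a profile of similar shape. It rose from 0.435% (H3K27me1) and 0.526% (5mC) in the first 250 bp to 5.73% and 3.34% at about 1.1 kb. The low value at the edge follows in part from the choice, since a domain that enters the gene removes it from the members. The profile of arm pseudogenes with both marks ran the other way, from 48.9% (H3K27me1) and 58.2% (5mC) in the first 250 bp to 12.1% and 10.9% at about 9.9 kb. This too follows in part from the choice, since a domain that meets a gene can run past its edge.

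Over flanks of 10 kb on each side, members had 7.48% of bases in H3K27me1 and 5.70% in 5mC domains, against 5.70% and 3.58% for unmarked protein-coding genes and 18.6% and 18.9% for pseudogenes with both marks. These flanks start at the gene edges, so the choice bears on them as well. The values were 6.98% and 6.87% around pseudogenes touched by 5mC alone, and 11% and 5.54% around those touched by H3K27me1 alone. The 2 biotypes hardly differed here, with 7.56% and 5.64% around the transcribed_pseudogene members and 7.22% and 5.89% around the others.

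**Figure D5:**
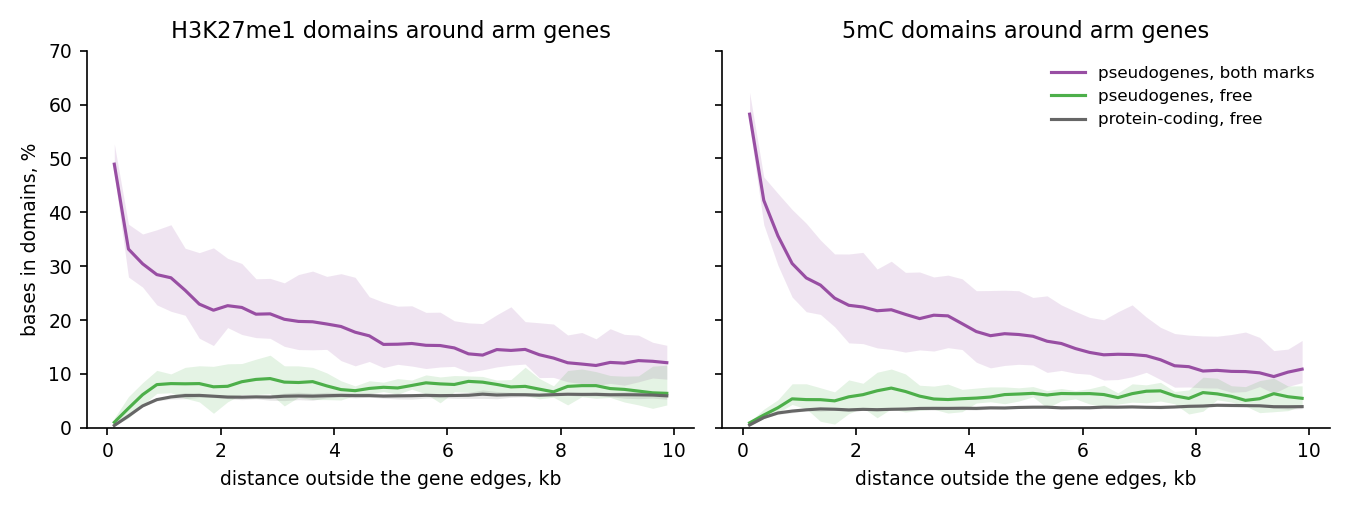
Share of bases in H3K27me1 (left) and 5mC domains (right) in bins of 250 bp outside the annotated gene edges (kb, both sides pooled) for arm pseudogenes without marks, arm pseudogenes with both marks and unmarked protein-coding genes of the arms. Lines give all chromosomes together and bands the range over the 5 chromosomes. Around the members the first bin holds 1.03 and 0.923% of bases in domains, and around the pseudogenes with both marks 48.9 and 58.2%.

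Pseudogenes with both marks lay closer to the pericentromeres than the other arm pseudogenes. The median distance from the pericentromere boundary was 3.61 Mb (3.23 to 4.01 Mb) for members and 2.19 Mb (1.75 to 2.69 Mb) for those with both marks. With H3K27me1 alone it was 3.59 Mb (2.93 to 5.02 Mb) and with 5mC alone 3.71 Mb (2.34 to 4.78 Mb), so the position was not particular to the members. Within 1 Mb of a boundary lay 18.7% of the members (15.4 to 22.3%) and 33.3% of those with both marks (29.4 to 37.4%). The difference was smaller within transcribed_pseudogene. Among transcribed_pseudogene genes the medians were 3.75 and 3.56 Mb, and among the biotype pseudogene 3.24 and 2.08 Mb. The unmarked share of transcribed_pseudogene genes showed no gradient: it was 71.4% within 1 Mb, 71.5% between 3 and 6 Mb and 75.5% (61.1 to 86.7%) beyond 9 Mb. For the biotype pseudogene it was 11.7% within 1 Mb (7.79 to 16.7%) and 22.0% between 3 and 6 Mb (16.3 to 28.5%). Near the chromosome ends, within 0.5 Mb, lay 14 members and 20 pseudogenes with both marks.

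The members stood between protein-coding genes more often than pseudogenes with both marks did. The shares of pseudogenes with a single mark were no lower than that of the members. The nearest gene on each side was protein-coding for 306 of 514 members (59.5%, 55.1 to 63.8%) and for 232 of 549 pseudogenes with both marks (42.3%, 38.1 to 46.5%), against 70.7% of unmarked protein-coding genes. It was so for 63.5% of those with H3K27me1 alone (54.0 to 72.3%) and for 68.4% of those with 5mC alone (56.7 to 78.6%). A pseudogene was a direct neighbour of 21.0% of the members (17.6 to 24.8%) and of 42.3% of those with both marks (38.1 to 46.5%), against 19.1% with H3K27me1 alone and 11.8% with 5mC alone. Within each biotype the share was again higher for the members, although the intervals overlapped and the difference was not tested. Both neighbours were protein-coding for 61.6% of transcribed_pseudogene members (56.6 to 66.4%) and 50% of those with both marks (36.3 to 63.7%). In the biotype pseudogene the shares were 52.9% (43.6 to 62.0%) and 41.4% (37.0 to 45.9%). For 142 of the 306 members between protein-coding genes, both neighbours were themselves outside both lists. Of the 780 protein-coding neighbours of members, 68.7% were outside both lists (65.3 to 72.0%), against 70.8% of all protein-coding arm genes.

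The protein-coding neighbours of members were marked about as often as other arm genes. Of 780 such neighbours, 23.2% had a base in H3K27me1 domains (20.3 to 26.3%) and 99 of them, 12.7%, in 5mC domains. Over all protein-coding genes of the arms, 21.1% and 12.8% of such neighbours did. Next to pseudogenes with both marks, 29.7% of 691 neighbours touched H3K27me1 (26.3 to 33.2%) and 24.9% touched 5mC (21.7 to 28.3%). The gap was thus wider for 5mC than for H3K27me1, although the 2 gaps were not compared by a test. The choice bears on these shares as well, since a domain that meets a pseudogene can run on into its neighbour. Next to pseudogenes with 5mC alone, 20% of 125 neighbours touched 5mC (13.4 to 28.1%), and next to those with H3K27me1 alone 15.6% of 179 did (10.7 to 21.8%). A base with a protein-coding gene was shared by 56 members (10.9%, 8.34 to 13.9%), against 3.46% of pseudogenes with both marks (2.10 to 5.35%). The shares with H3K27me1 alone (12.2%) and 5mC alone (9.21%) were like that of the members, and 26.0% of unmarked protein-coding genes shared bases with another such gene.

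Locus numbers also differed between the groups, but less so within a biotype. Locus numbers in steps of 10 were given to the genes of the first annotation, and others were added later. A number that is no multiple of 10 belonged to 63.8% of the members (59.5 to 68.0%) and to 45.9% of the pseudogenes with both marks (41.7 to 50.2%). Within transcribed_pseudogene the shares were 68.7% and 66.1%, and within the biotype pseudogene 47.9% and 43.6%. Among pseudogenes of at least 500 bp they were 54.8% (49.3 to 60.3%) and 45.1% (40.7 to 49.5%), with intervals that overlapped narrowly. This difference was not tested. Over all lengths, the share was 58.3% (48.7 to 67.4%) with H3K27me1 alone and 51.3% (39.6 to 63.0%) with 5mC alone. Both intervals overlapped that of all members. Among protein-coding arm genes the share was 12.7%.

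Few pseudogenes have a symbol of their own: 23 members (4.47%, 2.86 to 6.64%) and 10 of those with both marks (1.82%, 0.877 to 3.32%). The shares were higher with H3K27me1 alone (13 of 115, 11.3%, 6.16 to 18.6%) and with 5mC alone (7 of 76, 9.21%, 3.78 to 18.1%). Their intervals overlapped that of the members. Of the 23, 19 were transcribed_pseudogene genes, and most are named as relatives of working gene families. A neighbour with the same leading letters in its symbol stood beside 9 of the 23 (39.1%, 19.7 to 61.5%), beside 0 of the 10 with both marks (an upper bound of 30.8%) and beside 8.33% of 9782 protein-coding arm genes with a symbol. Such neighbours stood beside 0 of the 7 named pseudogenes with 5mC alone. They also stood beside 5 of the 13 with H3K27me1 alone, so that the members were not particular in this. This count was chosen after the names had been seen.

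Decayed copies in such arrays included genes of secondary metabolism and reproduction. Cytochromes P450 are oxidases with many roles in plant metabolism, and CYP71B18 (1852 bp) lay between CYP71B17, which touched H3K27me1, and the unmarked CYP71B19. An H3K27me1 domain on chromosome 3 from 9569101 to 9570000 (329 reads) came within 249 bp of it. CYP71B33 (1809 bp) lay between the unmarked CYP71B26 and CYP71B34, 4739 bp from the nearest domain. The fragments CYP702A4P (117 bp) and CYP702A7P (111 bp) were unmarked as well. The other 8 named P450 pseudogenes of the arms were not: 5 touched H3K27me1 alone, 1 touched 5mC alone and 2 touched both. Of these, CYP705A16 and CYP705A17P were covered by H3K27me1 domains over 99.7% and 78.6% of their length, without 5mC. The member AT3G20085, of 176 bp, lay between them and was 260 bp from the nearest domain.

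LURE1.6 (370 bp), of the family of peptides that attract pollen tubes, stood between LURE1.3 and LURE1.4, which were unmarked too. LCR71 (277 bp), of the small cysteine-rich peptides, stood beside the unmarked LCR72. UMAMIT39-psi (1364 bp), named for amino acid transporters, followed UMAMIT42, and ATPP2-B3 (1414 bp), of the phloem lectin family, lay beside PP2-B4, which touched 5mC. SCRL28 (453 bp), named for a likeness to the pollen determinant of self-incompatibility, lay 508 bp from an H3K27me1 domain of 1500 bp, and both of its neighbours touched that mark.

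The dynamin-related genes DRP4B (3024 bp) and DRP4D (2830 bp) lay on chromosome 1. DRP4D stood beside DRP4C, which is protein-coding and touched H3K27me1. Dynamin-related proteins are GTPases that shape membranes. DRP4B was 2225 bp and DRP4D 2320 bp from the nearest H3K27me1 domain, and they were 3451 and 6970 bp from 5mC.

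AOP2 (2409 bp), a dioxygenase gene of glucosinolate side chains that is known to be inactive in Col-0, lay on chromosome 4. The nearest 5mC domain was 8954 bp away, at 1363051 to 1363350 with 443 reads, and the nearest H3K27me1 domain 13387 bp away. It stood next to the unmarked pseudogene AT4G03063, which in turn was followed by the unmarked AOP1. PSEUDOSRKA (3756 bp) is the decayed receptor kinase of self-incompatibility, a system lost in this selfing species. It was 1882 bp from a 5mC domain of 300 bp and 8912 bp from H3K27me1, with the unmarked receptor kinase gene RK3 beside it.

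Among the other named members, ML3 (3820 bp), of the MEI2-like RNA-binding proteins, lay between 2 genes that touched both lists, AT4G18110 and the phytochrome gene PHYE. A domain of each list came within 430 bp of ML3. ARI6 (1796 bp), of the Ariadne ubiquitin ligases, lay between unmarked genes, 14836 bp from 5mC and 14986 bp from H3K27me1. UBC26 (1693 bp), a ubiquitin-conjugating enzyme, GA2OX5 (1983 bp), of the enzymes that inactivate gibberellin, RS3 (1953 bp), a raffinose synthase, and RABA4E (1250 bp), a small GTPase, were 2971, 2418, 5121 and 798 bp from the nearest domain.

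Transposon-derived members with a name were all Sadhu elements, short non-coding retrotransposons known to differ in methylation between natural accessions. Sadhu4-2 (1076 bp), SADHU7-1 (1111 bp) and SADHU10-1 (945 bp) were 11913, 24660 and 14827 bp from any domain. They had protein-coding neighbours on both sides, which were unmarked, as follows largely from such distances. SADHU1-2 (1972 bp) was also unmarked but lay 706 bp from domains of both lists. The other 3 named Sadhu elements of the arms, 886 to 889 bp long, were marked. SADHU8-1 (887 bp) was covered to 78.2% by H3K27me1 and to 95.2% by 5mC domains, SADHU6-1 (886 bp) had 59.9% and 100%, and SADHU5-1 (889 bp) had 67.5% and 84.4%. The family was thus divided, with 4 elements at 0 for both marks and 3 mostly covered.

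No MUSTANG gene was among the members. MUG1, MUG4 and MUG5 touched 5mC alone, over 36.2%, 56.8% and 9.54% of their length, MUG2 touched H3K27me1 alone (79.5%), and MUG6 touched both (10.5% and 20.9%). The retrotransposon RE2 (4437 bp) had 93.2% and 84.5% of its length in the domains of H3K27me1 and 5mC. The longest pseudogenes with both marks were AT2G01029 (10188 bp), covered to 100% by each, AT3G60965 (9903 bp, 18.2% and 3.03%), AT1G47860 (9594 bp, 45.1% and 41.9%), AT4G03300 (9379 bp, 79.4% and 92.2%) and AT5G38383 (8937 bp, 83.2% and 95%). Length alone did not go with full coverage among them.

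Where pseudogenes carried both marks, the coverage also went with the biotype. In the biotype pseudogene the median share of the length in domains was 98.4% for H3K27me1 (96.6 to 99.7%) and 100% for 5mC (99.8 to 100%), over 493 genes. Among the 56 transcribed_pseudogene genes it was 70% (52.8 to 73.8%) and 62.8% (46.4 to 85.3%).

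Members sometimes followed each other without another annotated gene between them. There were 3 runs of 3 or more members, with 11 genes in all, and 25 runs of 2. The longest was on chromosome 3, where AT3G21010, AT3G21020, AT3G21030, AT3G21040 and AT3G21050, all of the biotype pseudogene and 1236 to 1605 bp long, spanned 10.2 kb up to PSBTN, a photosystem subunit gene. None was closer than 14980 bp to a domain. The others were AT1G56470, AT1G56480 and AT1G56490 on chromosome 1 (7.82 kb, at least 802 bp from a domain) and AT1G12667, AT1G12669 and AT1G12670 on chromosome 1 (3.26 kb, at least 2880 bp).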

How the data were processed

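The authors' deposited lists hold 1 line per enriched domain, with its position and an unnormalized count of the reads it holds (at least 114 for H3K27me1 and 97 for 5mC). Bowtie, SICER and TAIR10 are named, per the submitters' processing notes. The sources used here do not give versions, thresholds, the treatment of reads with several matches, use of the input or whether replicates were pooled. Library totals were not used, so the depth behind a missing domain is unknown.

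Genes, biotypes and names came from the RefSeq table of TAIR10.1 (37899 nuclear genes). Its coordinates are not printed. At offsets of up to 2000 bp in steps of 50 bp, arm pseudogenes met the domains best at offset 0 in 8 of 10 combinations of chromosome and list, and within 50 bp in the others. Arms exclude 12.4 to 17.4 Mb of chromosome 1, 1.3 to 7.0 of 2, 10.6 to 16.5 of 3, 1.6 to 6.2 of 4 and 9.6 to 15.2 of 5.

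A gene was unmarked with 0 bases in either list and had both marks with at least 1 base in each. Neighbours are the nearest genes of any biotype that share no base with it. Named genes followed a fixed rule: the 15 longest members with a symbol, the 10 longest, the 5 farthest from and nearest to a domain, the 5 pseudogenes with fewest covered bases, the 5 longest with both marks and runs of at least 3. The other named genes were chosen after their values were seen. The members and lists were chosen with earlier results of these data known, and the division by biotype was added after the data were examined. No word for ribosomal RNA, F-box, disease resistance, microRNA, UGT, histone or ribosomal protein matched an arm pseudogene, and kinase words matched 3, of which 1 is a member. Sequence was not analysed here. Overlap functions were tested on simulated intervals. Python 3.11.15, numpy 2.4.6, pandas 2.3.3 and scipy 1.17.1 were used.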

Additional observations from a re-analysis of the deposited data

How the results depend on the processing

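Of 130 values under 13 alternatives, 102 stayed within the interval of the reported value (counts within 1.5 times). The others are given here, and the cause of each shift was not tested. The limit for counts is wide, and the 514 members became 353 to 761 within it. They numbered 761 with domains of at least 1000 bp and 661 with the denser part of each list. With genes called marked at 50% of their length there were 651, and with a margin of 1000 bp 353.

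With the denser part of each list (at or above its median reads per kb), the unmarked share was 85.4% for transcribed_pseudogene and 27.4% for the biotype pseudogene, with medians of 765 bp (no marks), 2619 bp (both marks) and 5073 bp to a domain. With domains of at least 1000 bp they were 92.3%, 36.2%, 3192 bp (both marks) and 15445 bp. With genes called marked at 50% of their length they were 84.6%, 26.6%, 859 bp (no marks) and 1246 bp. With a margin of 300 bp, the transcribed_pseudogene share was 65.1% and the distance 2268 bp. With 1000 bp the shares were 48.3% and 12.6%, the length with both marks 2004 bp and the distance 3359 bp. Among pseudogenes of at least 500 bp, 330 were unmarked (median 1074 bp, shares 67.8% and 12.5%, 54.8% with a locus number that is no multiple of 10, against 45.1% of those with both marks).

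Leaving out each chromosome in turn gave 338 to 449 unmarked pseudogenes, with such locus numbers in 60.4 to 72.5% of them and in 38.7 to 51.5% of those with both marks. Without chromosome 1 these were 338 and 72.5%. In every alternative the biotype pseudogene had the lower unmarked share. No paired analysis was possible because the lists hold no value per replicate, and no replicate could be left out for the same reason.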
